A study of Mus musculus with 6 samples.

Results

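Molecular chaperones help newly made and damaged proteins to fold, and the genes described here encode the heat shock protein 90, 70, 60, 10 and small families, their J-domain partners and the subunits of the cytosolic chaperonin CCT. Members were the rows of the deposited count table whose gene symbol begins with Hsp followed by a, b, d, e or h and a digit, with Hsp90a, or with Dnaj followed by a, b or c and a digit, together with Tcp1 and the Cct genes numbered 2 to 8. Hspa5, Dnajb9, Dnajb11, Dnajc3 and named pseudogenes were left out by the same rule, which used no expression value. It found 76 of 55494 rows. All cells were primary muscle stem cells, the Pax7-positive precursors of muscle repair, and the mice were wild type. The 3 EET libraries were made from cells kept for 2 days with 11,12-EET, an epoxyeicosatrienoic acid, a lipid mediator formed from arachidonic acid by cytochrome P450 enzymes. The 3 CON libraries were made from cells cultured without it. Neither the dose nor the medium of the controls is stated. Since nothing in the labels tells whether replicate libraries derive from different mice or dishes, the p-values cover the spread among these libraries alone, and that spread may be technical.

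HSP70 proteins bind and release unfolded stretches of protein in a cycle driven by ATP, which J-domain proteins start and nucleotide exchange factors end. HSP90 takes over partly folded clients such as kinases and steroid receptors, and CCT encloses actin, tubulin and other proteins in a barrel of stacked rings while they fold. Hspd1 and Hspe1 form a similar folding cage in mitochondria, and small heat shock proteins hold unfolded proteins until the other families act. In muscle cells these systems are known for folding myosin and actin and for clearing damaged filament proteins.

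Library totals ran from 30371291 to 37243882 counts, and levels are given as CPM, counts scaled to library size with trimmed mean of M-values (TMM) factors. Fold changes followed mRNA length across the whole table. The log2 CPM of protein-coding genes, relative to the mean of all libraries, changed with each doubling of mRNA length by −0.27, −0.21 and −0.11 in EET libraries and by 0.12, 0.24 and 0.24 in CON libraries, so short mRNAs stood higher in EET libraries. Results are therefore given as counted and again with the trend on length and GC content removed. Of 16097 genes tested with edgeR, 24.6% were higher and 23.3% lower in EET libraries (Benjamini-Hochberg adjusted p under 0.05); with the trend removed, 15.1% of 15834 genes were higher and 17.3% lower. All 10 muscle stem cell markers examined were detected, Pax7, Myf5 and Myod1 among them, and 4 of them were higher and 2 lower. Pax7 was among the lower ones (log2 fold change −0.45, adjusted p = 6.34e-05), while the sum of the list was 3961 to 4034 CPM in EET libraries and 3483 to 3773 CPM in CON libraries. The 6 endothelial markers summed to 141 to 163 CPM in EET libraries and 258 to 274 CPM in CON libraries, and 5 of them were lower. The 4 pericyte markers summed to 42.5 to 43.5 CPM in EET libraries and 60.4 to 71.5 CPM in CON libraries, and 2 of them were lower and 1 higher. The 4 Schwann cell markers summed to 139 to 159 CPM in EET libraries and 172 to 177 CPM in CON libraries, with 3 lower and 1 higher. The 6 leukocyte markers summed to 37.9 to 69.8 CPM in EET libraries and 74.8 to 82.3 CPM in CON libraries, with 2 of 5 tested lower. The 6 fibro-adipogenic markers summed to 345 to 350 CPM in EET libraries and 381 to 389 CPM in CON libraries, with 2 lower. The 3 erythroid markers summed to 2.00 to 23.1 CPM in EET libraries and 1.5 to 41.6 CPM in CON libraries, with 0 called. No marker was at 0 in all libraries. The part of these markers, and of mRNA length, in the chaperone results was not tested, and in bulk libraries fewer cells of a type and less RNA per cell cannot be told apart. Marker sums and calls are as counted only, and the part of mRNA length in them was not tested either.

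Chaperone genes together took shares of all counts that overlapped between the groups, but single genes and families differed. The 76 rows together held 2.49%, 2.52% and 2.49% of all counts in EET libraries, against 2.60%, 2.41% and 2.39% in CON libraries, so CON 1 lay above the EET libraries and the other controls beneath them. Of the 69 members that passed the filter on low counts, 28 were higher in EET libraries (40.6%, against 24.6% of all genes tested), 10 were lower (14.5%, against 23.3% of all genes) and 31 were not called, so 55.1% were called, against 47.9% of all genes. The values of the groups did not overlap for 49 members (71.0%, against 57.7% of all genes), with EET above CON for 36 (29.6% of all genes) and below for 13 (28.0% of all genes). The median log2 fold change of the 69 members was 0.17, and that of all genes 0.005. The 7 that did not pass were Dnajb7, Dnajb8, Dnajb13, Dnajc5b, Dnajc5g, Dnajc22 and Hspb3, several of them known as testis genes, and Dnajc5g had no count in any library.

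**Figure D1:**
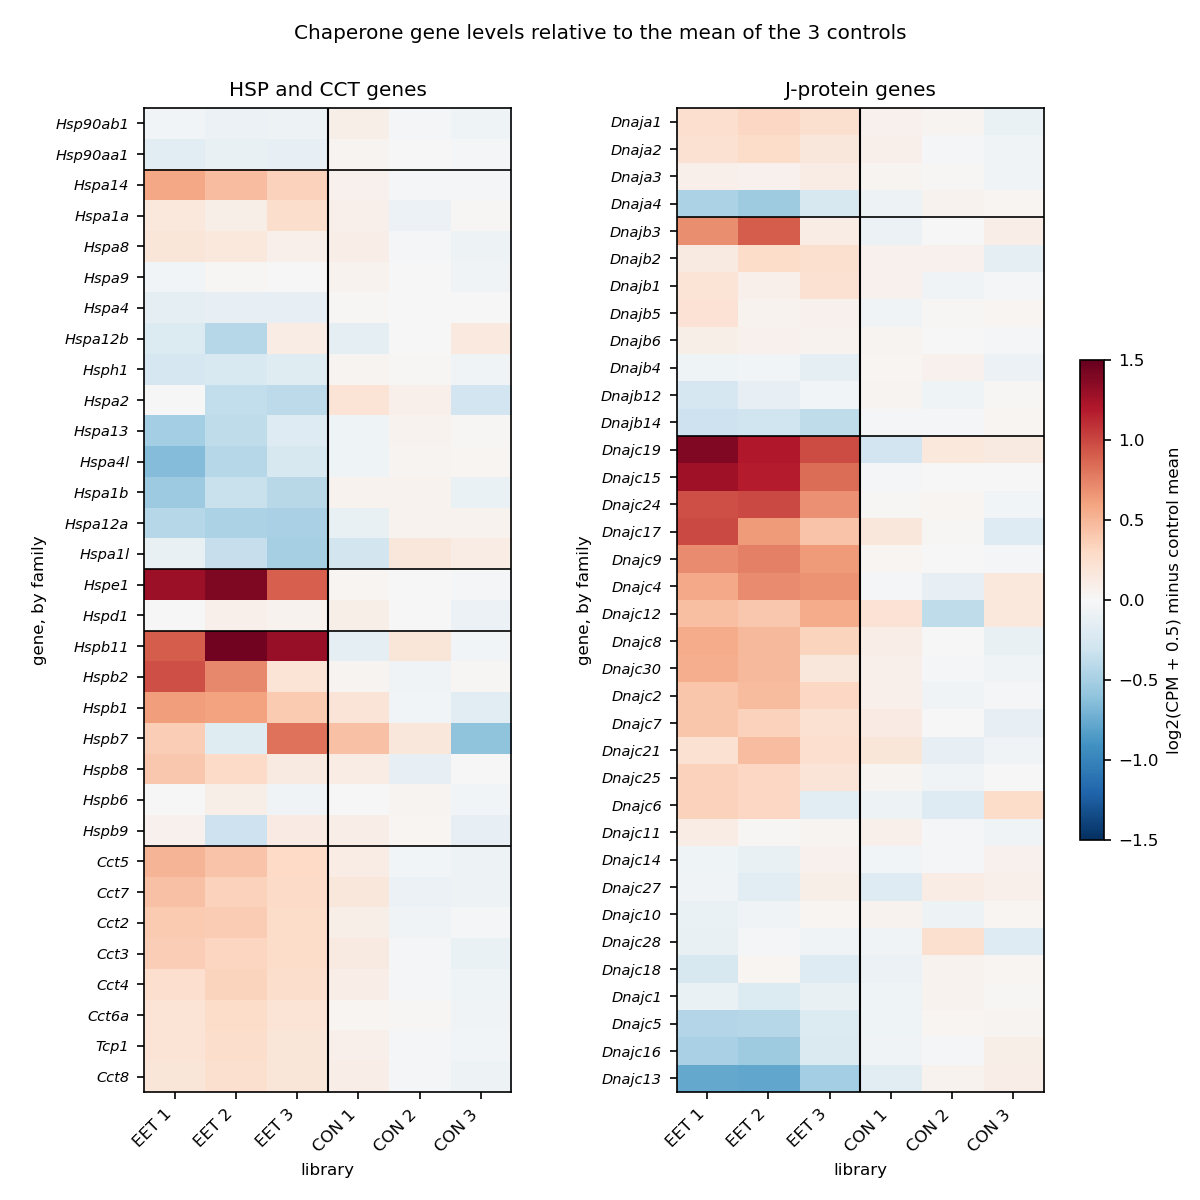
Level of 68 chaperone genes that passed the filter and have an annotated mRNA length, in each library, as log2(CPM + 0.5) minus the mean of the 3 CON libraries, with families down the page and EET libraries left of CON libraries. The 8 CCT genes form a solid block above the controls in all 3 EET libraries, whereas the HSP70 rows hold both signs.

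The mRNA length of the members went with the direction of their fold changes as it did over the whole table. Of 11 members with an mRNA under 1500 bases, 8 were higher and 0 lower, and their median log2 fold change was 0.73, beside 0.74 over 1793 protein-coding genes of that length. Of 20 members of 1500 to under 2500 bases, 16 were higher and 0 lower, with a median of 0.32 beside 0.30 over 2971 genes. The 20 members of 2500 to under 4000 bases had a median of 0.03, beside −0.02 over 4107 genes, and 1 was higher and 3 lower. At 4000 bases and over, 3 of 17 members were higher and 7 lower, and their median was −0.13, beside −0.38 over 4938 genes. The share of all genes called within each length class was not counted. The shares over genes of every length are no measure for these counts, so only the medians are compared. Spearman's rho between mRNA length and log2 fold change was −0.66 over 68 members, −0.68 over 13809 protein-coding genes and 0.24 over the members once the trend was removed; these are descriptions across genes, which share libraries and are no replicates. In the trend-removed fit, 17 of 68 members were higher (15.1% of all genes), 9 were lower (17.3% of all genes) and 42 were not called, and their median log2 fold change was 0.07, beside −0.04 over all genes. Both fits called 11 members higher and 3 lower, and 3 members, Hspb1, Dnajb14 and Dnajc5, were called in opposite directions by the fits.

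**Figure D2:**
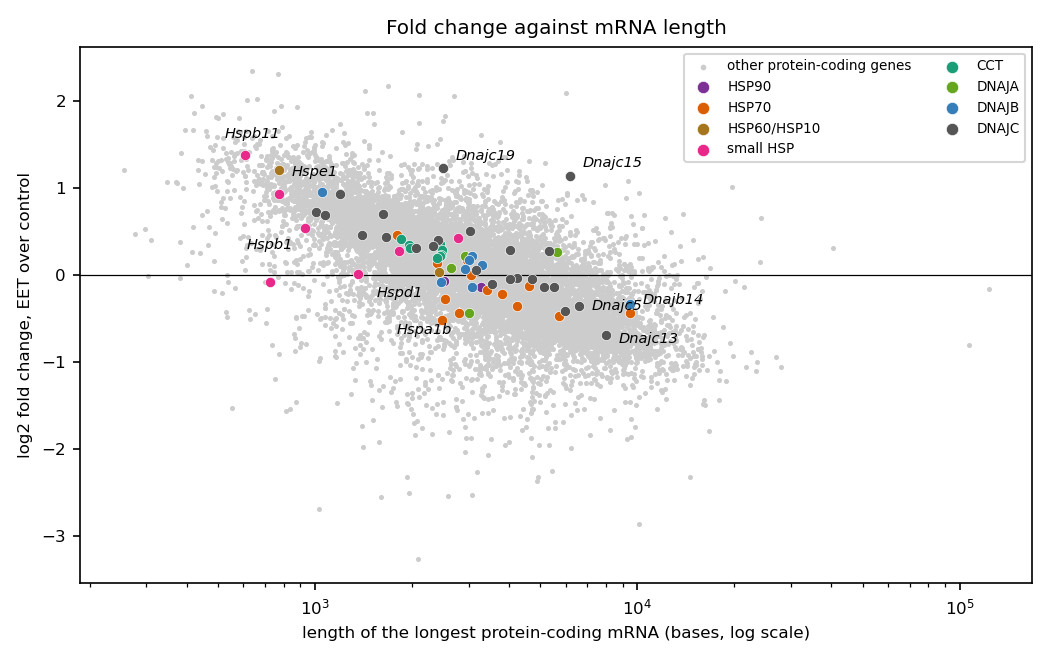
Log2 fold change of EET over CON (vertical) against the length in bases of the longest protein-coding mRNA of each gene (horizontal, log scale), with chaperone genes coloured by family over the other protein-coding genes in grey. Short members such as Hspe1 and Hspb11 sit at the top with other short mRNAs, and Dnajc15 lies above most other genes of its length.

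All 8 genes of the CCT ring were higher in EET libraries, against 24.6% of all genes, with log2 fold changes of 0.20 to 0.41. Where counts were scaled by library totals alone, 6 of 8 were higher. CCT is built of different subunits that each take a fixed place in a ring, and its best known clients are actin and tubulin. Cct5 had 928, 881 and 806 CPM in EET libraries, against 706, 637 and 621 CPM in CON libraries (log2 fold change 0.41 ± 0.07, adjusted p = 0.000312; ± beside a log2 fold change is its standard error). Cct2 had 1140, 1130 and 1052 CPM in EET libraries, against 922, 838 and 851 CPM in CON libraries (log2 fold change 0.35 ± 0.07, adjusted p = 0.000567). Cct7 had 827, 777 and 744 CPM in EET libraries, against 686, 572 and 579 CPM in CON libraries (log2 fold change 0.35 ± 0.08, adjusted p = 0.00167). In these 3 genes every EET library was above every CON library, and CON 1 was the highest control each time. Cct3 had 779, 751 and 728 CPM in EET libraries, against 659, 592 and 561 CPM in CON libraries (log2 fold change 0.32 ± 0.07, adjusted p = 0.00190). Cct4 had 607, 641 and 613 CPM in EET libraries, against 545, 497 and 486 CPM in CON libraries (log2 fold change 0.29 ± 0.07, adjusted p = 0.00252). The groups were again apart for both subunits. Cct6a had 744, 779 and 741 CPM in EET libraries, against 659, 655 and 621 CPM in CON libraries (log2 fold change 0.23 ± 0.06, adjusted p = 0.00775). Tcp1, the gene of the first subunit, had 800, 832 and 787 CPM in EET libraries, against 731, 677 and 672 CPM in CON libraries (log2 fold change 0.22 ± 0.06, adjusted p = 0.0115). Cct8 had 807, 838 and 803 CPM in EET libraries, against 759, 698 and 675 CPM in CON libraries (log2 fold change 0.20 ± 0.07, adjusted p = 0.0220). The last 3 had the smallest fold changes of the ring, again with CON 1 as the highest control.

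Several CCT calls were lost when single libraries were left out or when the length and GC trend was removed. Without CON 2 the adjusted p was 0.0746 for Tcp1 and 0.106 for Cct8, without CON 3 it was 0.0638 for Tcp1, 0.118 for Cct8 and 0.0520 for Cct6a, and without EET 2 it was 0.0625 for Tcp1 and 0.0933 for Cct8, so 5 to 8 of the 8 genes were called when 1 library was left out. The mRNAs of the 8 genes are 1853 to 2484 bases long, in the class of 1500 to under 2500 bases whose protein-coding genes had a median log2 fold change of 0.30. After trend removal, Cct7 had a log2 fold change of 0.19 (adjusted p = 0.00467) and Cct4 one of 0.14 (adjusted p = 0.0200), and both were still called. The other 6 had values of 0.01 to 0.09 and were not called, and the median of the 8 was 0.07. With the trend refitted on principal transcripts of all genes, 4 of 8 were called. Tcp1 at 0.12 (adjusted p = 0.0376) and Cct6a at 0.13 (adjusted p = 0.0235) were added. The CCT genes themselves had the same mRNA lengths in both fits. By sum, the CCT genes held 0.639%, 0.644% and 0.622% of all counts in EET libraries, against 0.579%, 0.523% and 0.525% in CON libraries, with no overlap.

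Levels per length were uneven among CCT subunits in both groups. CPM per kilobase of mRNA (CPM per kb) were highest for Cct2, at 565 ± 24.5 in EET libraries and 444 ± 23.2 in CON libraries (SD, n = 3 each), and next for Cct5, at 470 ± 33.3 in EET libraries and 353 ± 24.3 in CON libraries. Cct4 was lowest, at 250 ± 7.27 CPM per kb in EET libraries and 205 ± 12.6 in CON libraries. Cct3, Cct8, Tcp1, Cct7 and Cct6a lay between them, at 307 to 381 CPM per kb in EET libraries and 251 to 306 in CON libraries, and neighbours in that order differed by less than the sum of their SDs in both groups except for Cct3 and Cct8 in EET libraries. The ratio of the highest to the lowest subunit within a library was 2.38, 2.23 and 2.18 in EET libraries and 2.15, 2.14 and 2.22 in CON libraries, so it overlapped between the groups.

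**Figure D3:**
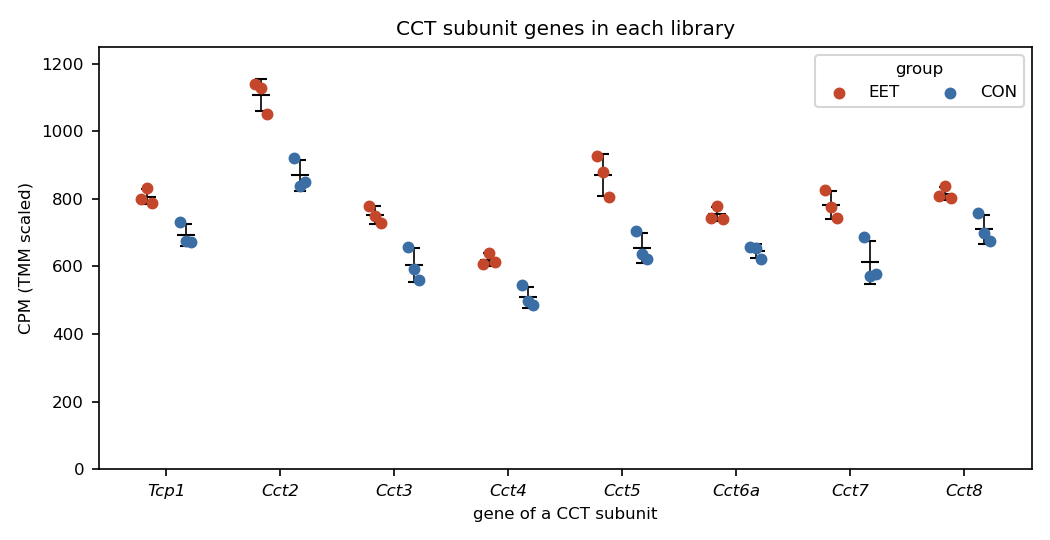
TMM-scaled CPM of the 8 CCT subunit genes in each library, with EET points left of CON points for each gene, a horizontal tick at each group mean and a vertical bar of 1 SD. All 3 EET libraries lie above all 3 CON libraries for each subunit.

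Among the mitochondrial chaperonin pair, Hspe1 was higher in EET libraries and Hspd1, its neighbour and partner, was not called. Hspd1 is the subunit of the folding cage and Hspe1 its lid. The genes stand head to head on chromosome 1 of GRCm38, Hspd1 on the minus strand at chr1:55077835-55088243 and Hspe1 on the plus strand at chr1:55088132-55091307, with 112 bases in common. Heat shock factors bind inverted repeats of GAA. A word of 3 such units, GAANNTTCNNGAA or its reverse complement TTCNNGAANNTTC, was searched in the 250 bases before each RefSeq start on GRCm38.p6, on both strands. It was present for 139 of 27025 genes with a window (0.514%) and for 3 of 60 members with one, Hspd1, Hspe1 and Dnajb6. RefSeq has 2 starts for Hspd1. The window before the inner start overlaps the Hspe1 window and holds the same stretch, shown here in both readings because the pair's values differed. The window before the outer start, at chr1:55088244-55088493, held no such word, and from that start the stretch lies within Hspd1. The printed 30 bases lie at chr1:55088053-55088082, and capitals mark 2 overlapping 3-unit words in them. The stretch is −95 to −66 from the Hspe1 start on the plus strand and −150 to −121 from the inner Hspd1 start on the minus strand, where GENCODE also places an Hspd1 exon.
Hspe1, plus strand: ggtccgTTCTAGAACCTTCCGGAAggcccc
Hspd1, minus strand: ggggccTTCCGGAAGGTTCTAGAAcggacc
A match of letters is a description and not a bound site.

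Hspe1 had 230, 249 and 176 CPM in EET libraries, against 95.9, 94.7 and 92.1 CPM in CON libraries (log2 fold change 1.21 ± 0.10, adjusted p = 1.62e-06). All 3 EET libraries were far above the controls, with EET 3 the lowest of them. Hspd1 had 1555, 1647 and 1616 CPM in EET libraries, against 1661, 1560 and 1468 CPM in CON libraries (log2 fold change 0.039 ± 0.07, adjusted p = 0.672), and the groups overlapped. The ratio of Hspe1 to Hspd1 counts was 0.148, 0.151 and 0.109 in EET libraries and 0.0577, 0.0607 and 0.0627 in CON libraries (exact two-sided permutation p = 0.1, the smallest that 3 against 3 libraries allow; 0.15 adjusted over 3 ratios). With 774 bases, the Hspe1 mRNA is among the shortest of the members, while that of Hspd1 has 2423 bases. With the trend removed, the log2 fold change of Hspe1 was 0.21 (adjusted p = 0.00450), still called, and that of Hspd1 was −0.11 (adjusted p = 0.0513). Per length, Hspe1 averaged 282 ± 49.1 CPM per kb in EET libraries and 122 ± 2.49 in CON libraries, and Hspd1 663 in EET libraries and 645 in CON libraries.

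In the HSP70 family lower calls outnumbered higher ones. Of 13 tested genes 1 was higher (7.69%, against 24.6% of all genes), 5 were lower (38.5%, against 23.3% of all genes) and 7 were not called, and the median log2 fold change was −0.22. After trend removal 1 was higher (15.1% of all genes) and 3 were lower, near the 17.3% of all genes, with a median of −0.04. The constitutive cytosolic Hspa8 was the most abundant, at 1917 CPM per kb in EET libraries and 1738 in CON libraries. It had 4718, 4655 and 4393 CPM in EET libraries, against 4446, 4104 and 3930 CPM in CON libraries (log2 fold change 0.14 ± 0.07, adjusted p = 0.108). EET 3 was beneath CON 1, so the groups overlapped; without CON 1 the adjusted p was 0.0276 and without EET 3 it was 0.0458. Hspa9, the mitochondrial HSP70, had 1267, 1318 and 1310 CPM in EET libraries, against 1353, 1292 and 1256 CPM in CON libraries (log2 fold change −0.0023 ± 0.06, adjusted p = 0.981), and the groups overlapped.

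The stress-inducible pair Hspa1a and Hspa1b gave different values although the genes are near copies of each other. Both lie on the minus strand of chromosome 17, with 9951 bases between them, and their mRNAs are 99.2% identical over 2201 aligned bases, so the split of reads between them is uncertain. Their 250-base promoters, Hspa1a at chr17:34972157-34972406 and Hspa1b at chr17:34959239-34959488, have 247 of 250 bases in common (98.8%) and are printed because the pair differed in its readout. Capitals mark a 2-unit word, GAANNTTC (TTCNNGAA was searched as well; both are their own reverse complements and both lie within the 3-unit words), which starts 104 bases before each start.
Hspa1a: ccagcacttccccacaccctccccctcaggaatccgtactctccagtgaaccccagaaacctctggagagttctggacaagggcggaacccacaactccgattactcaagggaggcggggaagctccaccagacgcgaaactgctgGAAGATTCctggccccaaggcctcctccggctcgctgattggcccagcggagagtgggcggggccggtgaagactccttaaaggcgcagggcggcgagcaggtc
Hspa1b: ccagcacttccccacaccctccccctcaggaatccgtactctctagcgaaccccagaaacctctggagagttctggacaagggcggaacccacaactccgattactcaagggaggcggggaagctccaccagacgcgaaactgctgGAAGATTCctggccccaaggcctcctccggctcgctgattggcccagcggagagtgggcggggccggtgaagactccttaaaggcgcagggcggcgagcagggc
Such a 2-unit word was present for 3932 of 27025 genes (14.5%) and for 16 of 60 members (26.7%).

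Hspa1b was lower in EET libraries, and Hspa1a was not called. Hspa1b had 34.1, 39.6 and 37.3 CPM in EET libraries, against 51.9, 51.6 and 46.3 CPM in CON libraries (log2 fold change −0.43 ± 0.09, adjusted p = 0.000712). All EET libraries were under all CON libraries. Hspa1a had 26.9, 25.5 and 28.8 CPM in EET libraries, against 25.3, 22.4 and 24.2 CPM in CON libraries (log2 fold change 0.17 ± 0.09, adjusted p = 0.140); every EET library was above every CON library, by a small margin. In the trend-removed fit the log2 fold changes were −0.53 (adjusted p = 1.63e-05) for Hspa1b and 0.11 (adjusted p = 0.314) for Hspa1a. The ratio of Hspa1b to Hspa1a counts was 1.27, 1.55 and 1.29 in EET libraries and 2.05, 2.30 and 1.91 in CON libraries (exact two-sided permutation p = 0.1, the smallest possible; 0.15 adjusted over 3 ratios). The third gene of the cluster, Hspa1l, which is known from testis, had 0.798, 0.608 and 0.497 CPM in EET libraries, against 0.657, 1.07 and 1.02 CPM in CON libraries (log2 fold change −0.52 ± 0.39, adjusted p = 0.298).

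**Figure D4:**
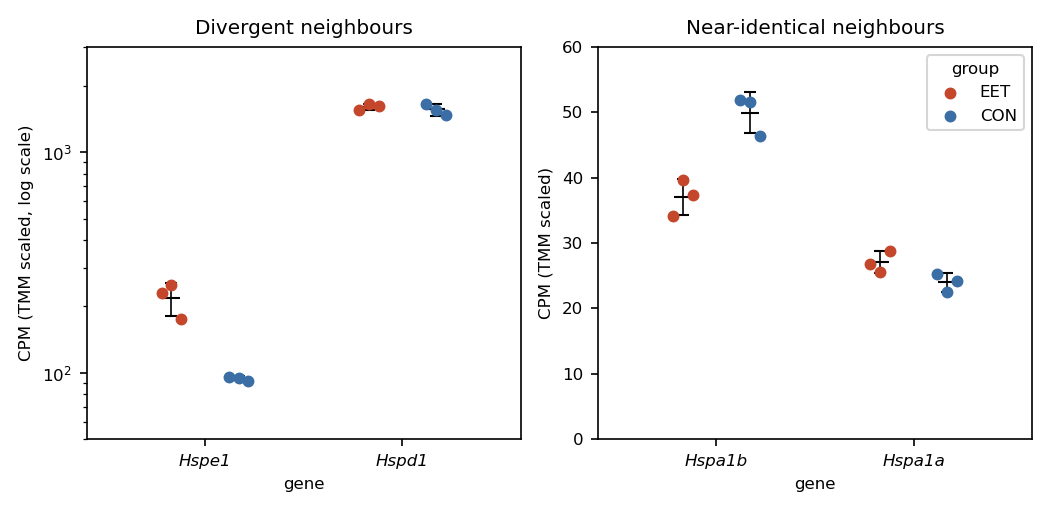
TMM-scaled CPM of the neighbouring genes Hspe1 and Hspd1 (left panel, log scale) and Hspa1b and Hspa1a (right panel, linear scale) in each library, with EET points left of CON points, horizontal ticks at group means and vertical bars of 1 SD. Hspe1 and Hspa1b separate in opposite directions, while Hspd1 overlaps and the Hspa1a groups are close.

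Among exchange factors and distant HSP70 relatives, Hsph1, Hspa4l, Hspa12a and Hspa13 were lower as counted. Hsph1, a nucleotide exchange factor of the HSP110 type, had 299, 303 and 314 CPM in EET libraries, against 364, 358 and 343 CPM in CON libraries (log2 fold change −0.22 ± 0.06, adjusted p = 0.00959). Its relative Hspa4l had 30.6, 35.8 and 40.9 CPM in EET libraries, against 46.0, 49.7 and 49.1 CPM in CON libraries (log2 fold change −0.43 ± 0.10, adjusted p = 0.00224). Hspa4, the third of these, had 677, 681 and 682 CPM in EET libraries, against 754, 738 and 740 CPM in CON libraries (log2 fold change −0.13 ± 0.06, adjusted p = 0.0916). EET values lay under CON values in all 3 genes, and Hspa4, not called as counted, was called lower with library totals (adjusted p = 0.0145) and with DESeq2 (adjusted p = 0.0457). With the trend removed the log2 fold changes were −0.080 (adjusted p = 0.182) for Hsph1, 0.086 (adjusted p = 0.361) for Hspa4l and 0.14 (adjusted p = 0.0271) for Hspa4, which was then called higher. Their mRNAs have 3802, 9479 and 4618 bases.

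Hspa12a, a distant HSP70 relative, had 30.1, 29.1 and 28.9 CPM in EET libraries, against 37.8, 42.3 and 42.3 CPM in CON libraries (log2 fold change −0.47 ± 0.08, adjusted p = 0.000289). Hspa13, a microsomal relative, had 71.2, 78.2 and 88.9 CPM in EET libraries, against 97.4, 105 and 103 CPM in CON libraries (log2 fold change −0.36 ± 0.08, adjusted p = 0.00231). Both stood apart from the controls. In the trend-removed fit Hspa13 was still lower, at −0.21 (adjusted p = 0.00580), and Hspa12a had −0.044 (adjusted p = 0.689). Hspa14, a ribosome-associated HSP70 that works with the J protein Dnajc2, was the one HSP70 gene called higher. It had 91, 83.8 and 76.9 CPM in EET libraries, against 63.6, 59.2 and 59.2 CPM in CON libraries (log2 fold change 0.47 ± 0.08, adjusted p = 0.000185), and a value of 0.11 (adjusted p = 0.154) with the trend removed. Hspa2, a testis-enriched HSP70, had 7.64, 5.76 and 5.65 CPM in EET libraries, against 8.83, 8.04 and 6.14 CPM in CON libraries (log2 fold change −0.27 ± 0.17, adjusted p = 0.217). It had −0.41 (adjusted p = 0.0470) with the trend removed, or −0.38 (adjusted p = 0.0699) with the trend refitted on principal transcripts. Hspa12b averaged 5.71 ± 1.2 CPM in EET libraries and 6.45 ± 0.68 CPM in CON libraries (SD, n = 3 each; log2 fold change −0.17 ± 0.17, adjusted p = 0.441).

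Neither HSP90 gene was called as counted, and both were lower once the length and GC trend was removed. Hsp90ab1, the constitutive cytosolic HSP90, was the most abundant chaperone, with 2042 CPM per kb in EET libraries and 2143 in CON libraries. It had 5262, 5063 and 5113 CPM in EET libraries, against 5751, 5310 and 5142 CPM in CON libraries (log2 fold change −0.070 ± 0.07, adjusted p = 0.426). EET 1 lay above CON 3, so the groups overlapped. Hsp90aa1, the inducible form, had 1952, 2043 and 2024 CPM in EET libraries, against 2260, 2188 and 2147 CPM in CON libraries (log2 fold change −0.13 ± 0.06, adjusted p = 0.0977), and all EET values were under all CON values. After trend removal the log2 fold changes were −0.21 (adjusted p = 0.000280) for Hsp90ab1 and −0.12 (adjusted p = 0.0236) for Hsp90aa1. With the trend refitted on principal transcripts of all genes they were −0.18 (adjusted p = 0.00157) for Hsp90ab1 and −0.09 (adjusted p = 0.0986) for Hsp90aa1. Both genes had the same mRNA length in both fits. Scaling by library totals and DESeq2 also called Hsp90aa1 lower, with adjusted p of 0.0147 and 0.0487. The pair held 0.695%, 0.691% and 0.707% of all counts in EET libraries, against 0.819%, 0.759% and 0.755% in CON libraries. That share was smaller in each EET library than in any control. The ratio of Hsp90aa1 to Hsp90ab1 counts was 0.371, 0.403 and 0.396 in EET libraries and 0.393, 0.412 and 0.417 in CON libraries (exact two-sided permutation p = 0.3; 0.3 adjusted over 3 ratios).

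Of 7 small heat shock genes tested 4 were higher as counted (57.1%, against 24.6% of all genes) and 0 lower, and with the trend removed 2 were lower (17.3% of all genes) and 0 higher. Their median mRNA has 930 bases, the shortest of any family. Hspb1, which binds actin and intermediate filaments, had 90.8, 89.2 and 77.1 CPM in EET libraries, against 67.0, 57.1 and 52.6 CPM in CON libraries (log2 fold change 0.54 ± 0.09, adjusted p = 0.000251). Each EET library was above each control. The direction turned with the trend removed, to −0.36 (adjusted p = 9.93e-05). Hspb11, which despite its name is a subunit of the intraflagellar transport machinery of cilia, had 5.30, 7.97 and 7.18 CPM in EET libraries, against 2.31, 3.0 and 2.51 CPM in CON libraries (log2 fold change 1.38 ± 0.20, adjusted p = 4.31e-05), and 0.41 (adjusted p = 0.122) with the trend removed.

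Hspb8, the partner of Bag3 in clearing damaged filament proteins, had 24.9, 22.8 and 20.6 CPM in EET libraries, against 20.3, 17.2 and 18.8 CPM in CON libraries (log2 fold change 0.28 ± 0.10, adjusted p = 0.0364). Hspb2, a small heat shock protein of muscle, had 2.25, 1.82 and 1.12 CPM in EET libraries, against 0.946, 0.857 and 0.922 CPM in CON libraries (log2 fold change 0.93 ± 0.32, adjusted p = 0.0261). EET libraries were above CON libraries in both. Neither call held without CON 2, CON 3, EET 1 or EET 2, with adjusted p of 0.0925 to 0.172 for Hspb8 and 0.0629 to 0.138 for Hspb2. The Hspb8 call was also lost with library totals (adjusted p = 0.1065). With the trend removed Hspb8 had −0.093 (adjusted p = 0.426) and Hspb2 had −0.094 (adjusted p = 0.846). Hspb2 shares 252 exon bases with Cryab on the opposite strand, which averaged 238 CPM in EET libraries and 173 CPM in CON libraries. Hspb6 averaged 6.58 ± 0.36 CPM in EET libraries and 6.52 ± 0.20 CPM in CON libraries (SD, n = 3 each) and was called lower only with the trend removed (−0.59, adjusted p = 0.00301). Hspb7 and Hspb9 averaged under 2 CPM in both groups and were not called, with log2 fold changes of 0.43 and −0.077.

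J-domain proteins hand substrates to HSP70 and form the largest set among the members. Of 36 tested, 14 were higher (38.9%, against 24.6% of all genes) and 5 lower (13.9%, against 23.3%) as counted. With the trend removed 13 were higher and 2 lower, where 15.1% of all genes were higher and 17.3% lower, and 8 were higher in both fits. Of the 33 other members tested 14 were higher (42.4%) and 5 lower (15.2%) as counted, and with the trend removed 4 of 32 were higher and 7 lower; 3 were higher in both. These are read against the same shares of all genes. The median trend-removed log2 fold change was 0.15 over J proteins and −0.03 over the other members. These counts and medians are descriptions, and the difference between the sets was not tested.

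Dnaja1, a main cytosolic J partner of Hspa8, was higher in EET libraries in both fits. It had 356, 371 and 354 CPM in EET libraries, against 312, 307 and 279 CPM in CON libraries (log2 fold change 0.27 ± 0.07, adjusted p = 0.00372), with 0.60 (adjusted p = 0.000381) after trend removal, and its longest mRNA has 5622 bases. Dnaja2, the other main type A partner, had 361, 372 and 346 CPM in EET libraries, against 325, 303 and 296 CPM in CON libraries (log2 fold change 0.22 ± 0.07, adjusted p = 0.0108), and 0.15 (adjusted p = 0.0168) with the trend removed. EET libraries were above CON libraries in both genes. The Dnaja2 call was lost without CON 2, CON 3 or EET 2, with adjusted p of 0.0599 to 0.0676, and with library totals (adjusted p = 0.0661). Dnaja4 was lower, with 8.30, 7.93 and 9.85 CPM in EET libraries, against 11.1, 12.2 and 12.0 CPM in CON libraries (log2 fold change −0.43 ± 0.13, adjusted p = 0.00991), and −0.45 (adjusted p = 0.00585) with the trend removed. Without EET 2 its adjusted p was 0.0522, and 1581 of its exon bases overlap Wdr61 on the opposite strand. Wdr61 averaged 92.4 CPM in EET libraries and 60.8 CPM in CON libraries. Mitochondrial Dnaja3 averaged 77.1 ± 1.1 CPM in EET libraries and 72.6 ± 2.4 CPM in CON libraries (SD, n = 3 each; log2 fold change 0.086 ± 0.07, adjusted p = 0.329).

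In the DNAJB family 1 of 8 tested genes was lower (12.5%, against 23.3% of all genes) and 0 higher (against 24.6% of all genes) as counted. With the trend removed 2 were higher and 1 lower, where 15.1% of all genes were higher and 17.3% lower. With the trend refitted on principal transcripts 1 was higher and 2 were lower. Dnajb1, the stress-inducible cytosolic J protein, had 70.2, 64.1 and 71.6 CPM in EET libraries, against 63.7, 58.7 and 60.1 CPM in CON libraries (log2 fold change 0.17 ± 0.08, adjusted p = 0.0711), and 0.15 (adjusted p = 0.0469) with the trend removed. Every EET value was above every control. Dnajb14, a J protein of the endoplasmic reticulum membrane, had 27.8, 27.9 and 26.4 CPM in EET libraries, against 34.1, 34.1 and 35.2 CPM in CON libraries (log2 fold change −0.33 ± 0.08, adjusted p = 0.00334). It was lower as counted and higher with the trend removed, at 0.24 (adjusted p = 0.0454), or 0.20 (adjusted p = 0.0952) with the trend refitted on principal transcripts. Its mRNA, of 9477 bases, is one of the longest of the members. Dnajb4, a relative of Dnajb1, had 54.3, 55.3 and 51.8 CPM in EET libraries, against 57.9, 59.5 and 53.5 CPM in CON libraries (log2 fold change −0.083 ± 0.08, adjusted p = 0.402), and was called lower only with the trend removed (−0.28, adjusted p = 0.00130). Dnajb2, a J protein that binds ubiquitin, had 27.4, 30.2 and 29.4 CPM in EET libraries, against 26, 26 and 22.5 CPM in CON libraries (log2 fold change 0.22 ± 0.09, adjusted p = 0.0648). Over 5 CPM in 3 libraries, Dnajb1 and Dnajb2 were both called higher (adjusted p = 0.0481 and 0.0467). A replicate block called both higher as well (adjusted p = 0.0276 and 0.0304). Dnajb3, known from testis, had 1.37, 1.66 and 0.746 CPM in EET libraries, against 0.578, 0.643 and 0.731 CPM in CON libraries (log2 fold change 0.95 ± 0.38, adjusted p = 0.0518); without EET 3, its lowest EET library, the adjusted p was 0.0116.

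Dnajb6, which keeps proteins from aggregating and is a limb-girdle muscular dystrophy gene in humans, had 129, 127 and 126 CPM in EET libraries, against 125, 121 and 119 CPM in CON libraries (log2 fold change 0.069 ± 0.06, adjusted p = 0.407). EET values lay just above CON values, and the gene was not called. It is the third member with a 3-unit heat shock word. The word is printed in capitals in a stretch at chr5:29735846-29735870 on the plus strand of GRCm38.p6, within an annotated exon.
Dnajb6: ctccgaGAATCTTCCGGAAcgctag
Its trend-removed log2 fold change depended on the transcript taken, at 0.032 (adjusted p = 0.636) with the longest and −0.35 (adjusted p = 1.81e-05) with the principal one. Dnajb5 averaged 12.3 ± 0.84 CPM in EET libraries and 11.3 ± 0.40 CPM in CON libraries (SD, n = 3 each), Dnajb12 averaged 56.8 ± 4.2 CPM in EET libraries and 62.6 ± 2.4 CPM in CON libraries, and neither was called, with log2 fold changes of 0.12 and −0.14.

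The DNAJC family, which is varied in function, held 12 higher (50.0%, against 24.6% of all genes) and 3 lower calls (12.5%, against 23.3%) among 24 tested genes, and 9 higher and 0 lower with the trend removed, beside 15.1% and 17.3% of all genes. The highest fold changes as counted were those of Dnajc19 and Dnajc15, both mitochondrial. Dnajc15, a protein of the inner mitochondrial membrane, had 27.9, 26.2 and 20.6 CPM in EET libraries, against 11.1, 11.3 and 11.4 CPM in CON libraries (log2 fold change 1.14 ± 0.12, adjusted p = 3.65e-06). Dnajc19, a J protein of the mitochondrial import motor, had 24.6, 21.5 and 18.3 CPM in EET libraries, against 7.30, 10.2 and 10.0 CPM in CON libraries (log2 fold change 1.23 ± 0.14, adjusted p = 1.01e-05). No EET library overlapped a CON library in either gene, and EET 3 was the lowest EET library in both. After trend removal Dnajc15 had 1.58 (adjusted p = 5.93e-06), on an annotated mRNA of 6193 bases. Dnajc19 had 1.05 (adjusted p = 7.29e-05) with its longest transcript of 2499 bases, but 0.25 (adjusted p = 0.151) with the principal one of 659 bases.

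Dnajc9, Dnajc2, Dnajc7 and Dnajc8, with roles in the nucleus and cytosol, were higher as counted. Dnajc9, a chaperone of histones, had 131, 136 and 125 CPM in EET libraries, against 81.6, 79.9 and 78.8 CPM in CON libraries (log2 fold change 0.71 ± 0.07, adjusted p = 2.15e-06). Dnajc2, the ribosome-bound partner of Hspa14, had 219, 228 and 202 CPM in EET libraries, against 172, 157 and 161 CPM in CON libraries (log2 fold change 0.41 ± 0.07, adjusted p = 0.000205). Both were still called with the trend removed, at 0.27 (adjusted p = 0.000260) for Dnajc9 and 0.23 (adjusted p = 0.000889) for Dnajc2. Dnajc7, which binds both HSP70 and HSP90, had 170, 161 and 149 CPM in EET libraries, against 139, 127 and 116 CPM in CON libraries (log2 fold change 0.33 ± 0.08, adjusted p = 0.00271), and 0.14 (adjusted p = 0.0464) with the trend removed. Dnajc8, a spliceosome-associated J protein, had 217, 206 and 186 CPM in EET libraries, against 158, 148 and 136 CPM in CON libraries (log2 fold change 0.46 ± 0.08, adjusted p = 0.000175), and −0.10 (adjusted p = 0.101) with the trend removed. All EET libraries were above all CON libraries for these 4 genes.

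Among the other higher DNAJC genes Dnajc24, which takes part in diphthamide synthesis, averaged 14.6 ± 1.7 CPM in EET libraries and 7.68 ± 0.21 CPM in CON libraries (SD, n = 3 each; log2 fold change 0.93 ± 0.12, adjusted p = 2.51e-05). Dnajc17 and Dnajc4 had log2 fold changes of 0.73 and 0.70 (adjusted p = 0.00148 and 0.00104). Those 3 have mRNAs of 1008 to 1197 bases, and with the trend removed none was called, Dnajc17 having −0.10 and Dnajc4 −0.079. Dnajc25 had 0.28 as counted and 0.45 (adjusted p = 0.000119) with the trend removed; without CON 2 its adjusted p was 0.0553. Dnajc21, a factor of ribosome assembly, had 0.31, and its adjusted p was 0.0538 to 0.0748 without CON 2, CON 3 or EET 2. Mitochondrial Dnajc30 had 0.44, with adjusted p of 0.0721 to 0.0983 without CON 2, CON 3, EET 1 or EET 2, and 0.0502 with library totals. It averaged 8.43 CPM in EET libraries and 6.24 CPM in CON libraries. Of its exon bases, 436 overlap Bud23 on the opposite strand, which averaged 73.7 CPM in EET libraries and 49.6 CPM in CON libraries.

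The lower genes of the family had mRNAs of 5969 to 8012 bases. Dnajc13, which acts at endosomes, averaged 109 ± 12 CPM in EET libraries and 175 ± 16 CPM in CON libraries (SD, n = 3 each; log2 fold change −0.69 ± 0.09, adjusted p = 1.86e-05), and had −0.12 (adjusted p = 0.0674) with the trend removed. Dnajc5, the cysteine string protein of secretory vesicles, averaged 102 ± 9.4 CPM in EET libraries and 131 ± 4.8 CPM in CON libraries (log2 fold change −0.36 ± 0.08, adjusted p = 0.00121), and was higher with the trend removed (0.15, adjusted p = 0.0197). Dnajc16 averaged 18.7 ± 2.3 CPM in EET libraries and 24.9 ± 1.4 CPM in CON libraries (log2 fold change −0.42 ± 0.10, adjusted p = 0.00418), and had 0.020 (adjusted p = 0.885) with the trend removed. Dnajc1 and Dnajc14 were not called as counted and higher with the trend removed, at 0.26 (adjusted p = 0.00708) and 0.18 (adjusted p = 0.0281). With library totals Dnajc1 was instead called lower, at −0.21 (adjusted p = 0.0497). Dnajc6, Dnajc10, Dnajc11, Dnajc12, Dnajc18, Dnajc27 and Dnajc28 were called in neither fit, with log2 fold changes of −0.13 to 0.51 as counted. With the trend refitted on principal transcripts, Dnajc10 (0.14, adjusted p = 0.0383), Dnajc18 (0.23, adjusted p = 0.0440) and Dnajc27 (0.27, adjusted p = 0.0440) were called higher. Without CON 1, Dnajc12 was called higher (0.63, adjusted p = 0.0310).

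**Figure D5:**
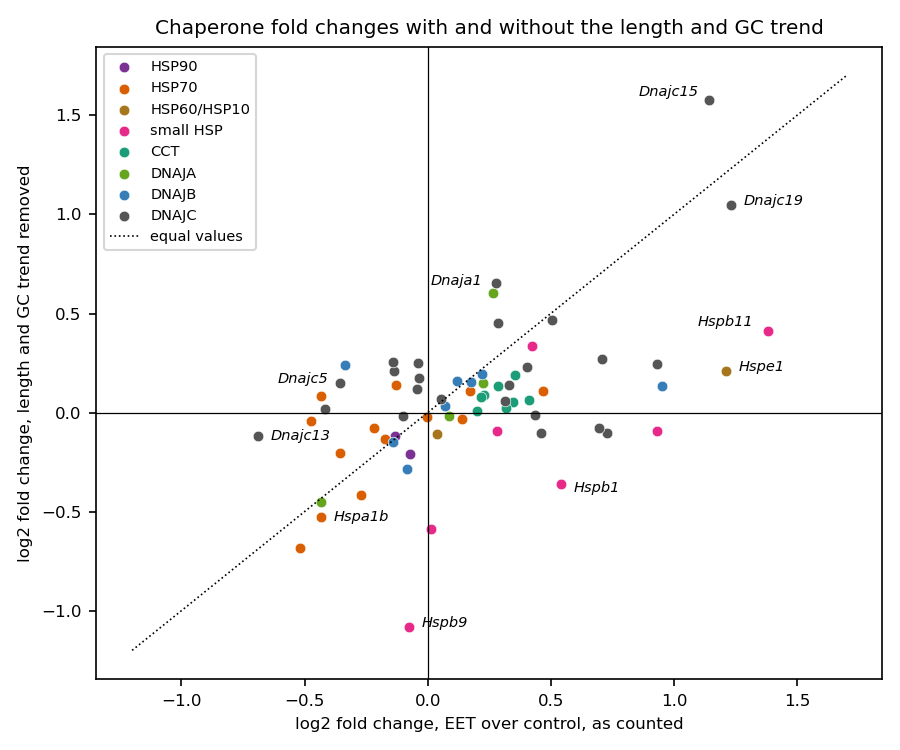
Log2 fold change of EET over CON for each chaperone gene as counted (horizontal) and after removal of the trend on length and GC content (vertical), coloured by family, with a dotted line at equal values. CCT and small HSP genes fall beneath the line towards 0 or under it, whereas Dnajc15 and Dnaja1 rise above it.

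Genes that work with these chaperones were counted in lists taken from textbook knowledge. The counts are read against all genes, of which 24.6% were higher and 23.3% lower as counted, and 15.1% and 17.3% with the trend removed. Of 13 partners of CCT, which deliver or receive its substrates, 10 were higher and 1 lower (median log2 fold change 0.72), or 5 higher and 1 lower with the trend removed. Their median mRNA has 1416 bases, and protein-coding genes under 1500 bases had a median log2 fold change of 0.74. Tbca, a tubulin cofactor, averaged 54.8 ± 9.0 CPM in EET libraries and 21.2 ± 0.64 CPM in CON libraries (SD, n = 3 each; log2 fold change 1.37 ± 0.11, adjusted p = 1.01e-06). Pfdn5, a prefoldin subunit, averaged 84.6 ± 13 CPM in EET libraries and 35.2 ± 2.1 CPM in CON libraries (log2 fold change 1.27 ± 0.10, adjusted p = 1.16e-06). In the trend-removed fit they had 0.36 (adjusted p = 0.000580) for Tbca and 0.47 (adjusted p = 6.22e-06) for Pfdn5, and both were still called. Of 17 HSP90 co-chaperones 9 were higher and 0 lower (median 0.22), or 6 and 1 with the trend removed. Ahsa1, which activates the HSP90 ATPase, averaged 215 ± 24 CPM in EET libraries and 140 ± 4.3 CPM in CON libraries (log2 fold change 0.61 ± 0.08, adjusted p = 2.13e-05), and had 0.019 (adjusted p = 0.804) with the trend removed. Fkbp4, a co-chaperone of steroid receptors, averaged 464 ± 23 CPM in EET libraries and 331 ± 18 CPM in CON libraries (log2 fold change 0.49 ± 0.07, adjusted p = 3.95e-05), and had 0.25 (adjusted p = 0.000120) with the trend removed.

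Of 14 HSP70 cofactors 9 were higher and 3 lower (median 0.26), or 4 and 2 with the trend removed. Stub1, a ubiquitin ligase that marks chaperone clients, averaged 83.6 ± 10 CPM in EET libraries and 47.7 ± 5.2 CPM in CON libraries (log2 fold change 0.81 ± 0.10, adjusted p = 1.69e-05), and had 0.37 (adjusted p = 0.000144) with the trend removed. Bag1, an exchange factor, averaged 219 ± 26 CPM in EET libraries and 131 ± 13 CPM in CON libraries (log2 fold change 0.74 ± 0.09, adjusted p = 1.80e-05), and had 0.13 (adjusted p = 0.0533) with the trend removed. Bag3, the partner of Hspb8 and a target of heat shock factor 1, averaged 137 ± 3.7 CPM in EET libraries and 142 ± 3.1 CPM in CON libraries (log2 fold change −0.048 ± 0.06, adjusted p = 0.569), and was called lower only with the trend removed (−0.19, adjusted p = 0.00276). Of 8 genes of mitochondrial quality control 5 were higher and 0 lower (median 0.31), or 1 and 0 with the trend removed. The smallest p-values of that list were those of Clpp, a matrix protease subunit (log2 fold change 0.91 ± 0.10, adjusted p = 9.54e-06), and Pam16, of the import motor (log2 fold change 1.19 ± 0.14, adjusted p = 1.23e-05). Neither was called with the trend removed, at 0.069 (adjusted p = 0.457) for Clpp and 0.043 (adjusted p = 0.819) for Pam16.

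Heat shock factors turn on many of these genes under stress. Of 4 tested genes of that list 2 were higher and 0 lower (median 0.47), or 0 and 1 with the trend removed, and Hsf3 and Hsf5 did not pass the filter. Hsf1, the main factor of the stress response, averaged 82.7 ± 2.9 CPM in EET libraries and 71.6 ± 2.2 CPM in CON libraries (log2 fold change 0.21 ± 0.07, adjusted p = 0.0216), and had −0.083 (adjusted p = 0.294) with the trend removed. Without CON 2 or CON 3 the adjusted p was 0.115 and 0.0681, and with library totals it was 0.136. Hsbp1, which binds heat shock factors, averaged 64.8 ± 9.7 CPM in EET libraries and 36.0 ± 3.0 CPM in CON libraries (log2 fold change 0.85 ± 0.11, adjusted p = 1.74e-05), and had 0.16 (adjusted p = 0.122) with the trend removed.

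Some values rest on reads that could belong to more than 1 gene. Processed pseudogenes at least 95% identical over 150 or more bases exist for Hspa8, Hsp90aa1, Hspd1, Dnaja1, Dnajb6, Cct7, Dnajc17, Dnajc19 and Dnajc5b. Hspb1 and Hspe1 have near-identical copies as well. The most counted of these pseudogenes, Gm15459, a copy of Hspa8, had 867, 574 and 718 counts in EET libraries and 1050, 882 and 778 counts in CON libraries, well under the counts of Hspa8 itself. Tcp1 shares a stretch of 445 bases, 98.7% identical, with Acat2, and Dnajb14 shares similar stretches of 150 bases or more with many genes. Exons on opposite strands overlap by 571 bases for Tcp1 and Acat3, 141 for Tcp1 and Mrpl18 and 452 for Cct6a and Psph. They also overlap by 214 bases for Cct7 and Pradc1, 192 for Cct8 and Usp16 and 608 for Dnaja1 and Smu1. The overlap is 178 bases for Dnajc19 and Fxr1 and 1114 for Dnajc14 and Ormdl2. Mrpl18, Psph, Pradc1, Ormdl2 and Smu1 had log2 fold changes of 0.84, 0.75, 0.91, 0.82 and 0.31, while Acat3, Usp16 and Fxr1 had −0.018, −0.023 and −0.099. The library protocol marks strand, but whether the counting used it is not stated, so reads of such pairs may be mixed. On the same strand, Dnajc14 shares 55 exon bases with Sarnp, Dnaja3 shares 160 with Vasn and Hspa14 shares 321 with Gm45902. Sarnp averaged 104 CPM in EET libraries and 59.8 CPM in CON libraries.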

How the data were processed

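Libraries of poly(A) RNA were sequenced as paired reads after a strand-marking dUTP step, per the labels' protocols. The authors deposited whole-number counts per gene symbol, not normalized. FastQC, cutadapt, DESeq2 and GRCm38 appear in the submitters' processing notes; aligner, counter, annotation and strand setting: not given in the sources used here. Groups and replicate numbers came from the sample titles. Of 55494 rows, 25226 had no count. Even numbers made up 65.6, 65.4 and 65.0% of counts from 11 to 50 in EET libraries and 61.7, 61.3 and 62.1% in CON libraries. Mates may therefore have been counted apart, and precision may be lower than totals of 30371291 to 37243882 counts give. The shares did not overlap between the groups, and the cause was not tested.

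Counts were fitted with edgeR 4.0.16 in R 4.3.3 (filterByExpr, TMM, robust glmQLFit, glmQLFTest, no block). Adjustment was by Benjamini-Hochberg over all 16097 genes tested, with calls at an adjusted p under 0.05. For the trend-removed fit, each library's deviation was smoothed on log2 length and GC percent of the longest protein-coding transcript (loess, span 0.3, degree 2, robust) and the smooth entered as an offset. Lengths came from GENCODE M21 on GRCm38, where 53292 rows and 75 members matched by symbol, and 98.4% of genes tested had both values. Ratios of counts were compared with exact permutation tests. RefSeq promoter windows on GRCm38.p6 covered 60 members, not Cct4, Dnajc2, Dnajc5, Dnajc5b, Dnajc11, Dnajc12, Dnajc18, Dnajc22, Dnajc30, Hsp90aa1, Hsp90ab1, Hspa8, Hspa9, Hspa13 or Hspb2. The values of 1 member are not reported here. Near-identical copies were sought with BLAST+ 2.17.0. The pipeline was tested on simulated data that held no length or GC trend, so that test cannot show how well such a trend is removed.

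The members and lists were chosen with earlier results of these data known. Values in every library are given for members fixed by name and for the 3 with the smallest p of each family; the 2 with the smallest p of each further list are named, plus Hsf1 and Bag3. Other settings tried were RLE scaling, scaling by library totals, no filter, over 5 CPM in 3 libraries, DESeq2 1.42.0, a replicate block, counts divided by 2, each library left out and, added after seeing the data, APPRIS principal transcripts for the trend. The last of these refitted the trend over all genes, so values also moved for members whose principal and longest transcripts have the same length. Every pair of libraries differed by more than sampling noise, the smallest chi-square per gene being 5.97.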

Additional observations from a re-analysis of the deposited data

How the results depend on the processing

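Members called higher and lower numbered 28 and 10 with RLE scaling and without a filter, 29 and 10 over 5 CPM, 30 and 10 on counts divided by 2, 28 and 12 with DESeq2 and 23 and 13 with library totals. Library totals moved the median log2 fold change of all genes to −0.064 and the share of higher calls among all calls to 44.0%, beside 51.4%. Leaving out 1 library gave 20 to 30 higher and 9 to 10 lower members. With the length and GC trend removed, 17 members and 2395 genes were higher (2419 genes with principal transcripts), beside 28 members and 3967 genes as counted. Both fits called 11 members higher, and the cause of the change was not tested. Same-numbered libraries deviated with correlations of −0.0035, −0.050 and 0.0089, and differently numbered ones with −0.049 to 0.054, so no pairing by number was seen. The labels do not tell whether same-numbered libraries share an origin, and these few correlations cannot exclude it. The replicate block gave 32 higher and 12 lower members, and with the trend removed 19 and 11, and 2505 genes higher.

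Among the members given by library, log2 fold changes turned in sign in the following settings, and the cause was not tested. With library totals Dnajb6 had −0.00020 and Hspd1 −0.030. With the trend removed by longest transcript, with the replicate block added and by principal transcript, Dnajb14 had 0.24, 0.24 and 0.20, Dnajc8 had −0.10, −0.10 and −0.066, Hspa4 had 0.14, 0.14 and 0.16, Hspa4l had 0.086, 0.086 and 0.054, Hspa8 had −0.031, −0.031 and −0.0013. In the same order, Hspb1 had −0.36, −0.36 and −0.30, Hspb2 had −0.094, −0.11 and −0.017, Hspb8 had −0.093, −0.093 and −0.068, Hspd1 had −0.11, −0.11 and −0.071. By principal transcript Dnajb2 had −0.11, Dnajb6 −0.35 and Hspa9 0.019. Leaving out 1 library gave Hspa9 −0.028 to 0.025 and Hspd1 −0.0054 to 0.083. Among the other members, with the trend removed by longest transcript, the sign also turned for Dnaja3 (−0.015), Dnajc1 (0.26), Dnajc4 (−0.079), Dnajc5 (0.15), Dnajc10 (0.12), Dnajc14 (0.18), Dnajc16 (0.020), Dnajc17 (−0.10), Dnajc18 (0.21), Dnajc27 (0.25), Dnajc30 (−0.012) and Hspb6 (−0.59), and by principal transcript for Dnajc28 (0.017), but no longer for Dnaja3 and Dnajc30.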
